A study of Homo sapiens with 29 samples.

Results

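The comparison described here asked what differentiation media (DIFF media) added to the transcriptome of human myoblasts in which the transcription factor ZNF148 had already been lowered. It used the 3 arrays of ZNF148 siRNA at 48 h in DIFF media and the 3 arrays of ZNF148 siRNA at 48 h in growth media, which were 6 of the 29 arrays of the series, and it covered all genes. Arrays were placed in these groups by the authors' sample labels alone. The cells were LHCN-M2, human skeletal myoblasts that have been immortalized, so every group came from 1 line rather than from several donors. All 6 cultures had received 20 nM ZNF148 siRNA, and RNA from each was labelled in 1 colour and measured on a separate Agilent array. The study gives the composition of its media for its siRNA screen and not separately for the array cultures. There, growth media held fetal bovine serum, dexamethasone, hepatocyte growth factor and basic fibroblast growth factor. DIFF media held no serum but insulin and apo-transferrin, and in the screen they replaced a part of the growth media. For transfections in 6-well plates, the methods say that DIFF media replaced the media, without naming a part. The labels give 48 h for both media, but the methods place the change of media after transfection, so the groups may also differ in the time since transfection, and media and time cannot be told apart. Nontargeting siRNA at 48 h in both media (6 arrays) and ZNF148 siRNA at 96 h in both media (6 arrays) were used to show where the media difference itself differed.

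Skeletal muscle forms when myoblasts leave the cell cycle, switch on MYOD1, MYOG and MEF2 factors, and fuse into myotubes that assemble sarcomeres. In culture this is usually brought about by withdrawing serum and mitogens, which lowers signalling through receptor tyrosine kinases and ERK. ZNF148 is a zinc finger protein that binds GC-rich DNA. Glucocorticoids such as dexamethasone act through a nuclear receptor that directly induces genes such as FKBP5, TSC22D3 and PER1. BMP and TGF-beta act through SMAD proteins, and the ID genes are their classical targets.

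Values are log2 signals after quantile normalization over all 29 arrays, and differences are DIFF minus growth media on that scale. Between 45.0% and 56.5% of the probes of these 6 arrays were well above background, and no probe was marked as saturated. Correlations over probes ran from 0.9723 to 0.9853 within a group and from 0.9626 to 0.9782 between the groups. Each of 3 slides held 1 array of each group. The labels do not say that replicates came from separate experiments, so p-values measure the spread between these arrays, which may be partly technical. A gene was called higher or lower when its limma adjusted p was under 0.05 and its difference was over 2-fold. "Rose" and "fell" are used for such genes. A gene below background on every array of 1 group is given with a lower bound on its fold. With 3 arrays a group, the number of arrays limits the precision.

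The targeted gene was checked first. ZNF148 gave 6.90, 6.90 and 6.53 in growth media and 7.02, 6.95 and 7.23 in DIFF media, against a mean of 8.85 in growth media and 9.40 in DIFF media with nontargeting siRNA. It was thus at a similar low level in both media. Its difference between the media of 0.29 ± 0.14 (SE, n = 3 against 3) had an interval from -0.02 to 0.60 and did not pass the test (limma adjusted p = 0.222). The labelled cell type was checked against its markers: the skeletal myotube markers summed to between 1490000 and 1550000 in growth media and to between 1770000 and 1800000 in DIFF media on the linear signal scale, and the skeletal myoblast markers to between 672000 and 679000 and between 717000 and 742000.

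With ZNF148 lowered, changing the media moved a small part of the transcriptome, with more genes down than up. Of 18432 genes tested, 277 rose (1.5%) and 513 fell (2.78%), 790 in all (4.29%). Over 38839 probes, 519 were called higher (1.34%) and 771 lower (1.99%). At the adjusted p alone, 1712 genes were higher (9.29%) and 2167 lower (11.8%). The groups did not overlap for 7492 genes (40.6%), of which 3639 were higher (19.7%) and 3853 lower (20.9%). The median difference over all genes was 0.01, the value beside which the list medians are given. Counts of list members that rose or fell stand beside these 1.5% and 2.78% of all genes. Mentions of groups that did not overlap stand beside the 40.6%.

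**Figure D1:**
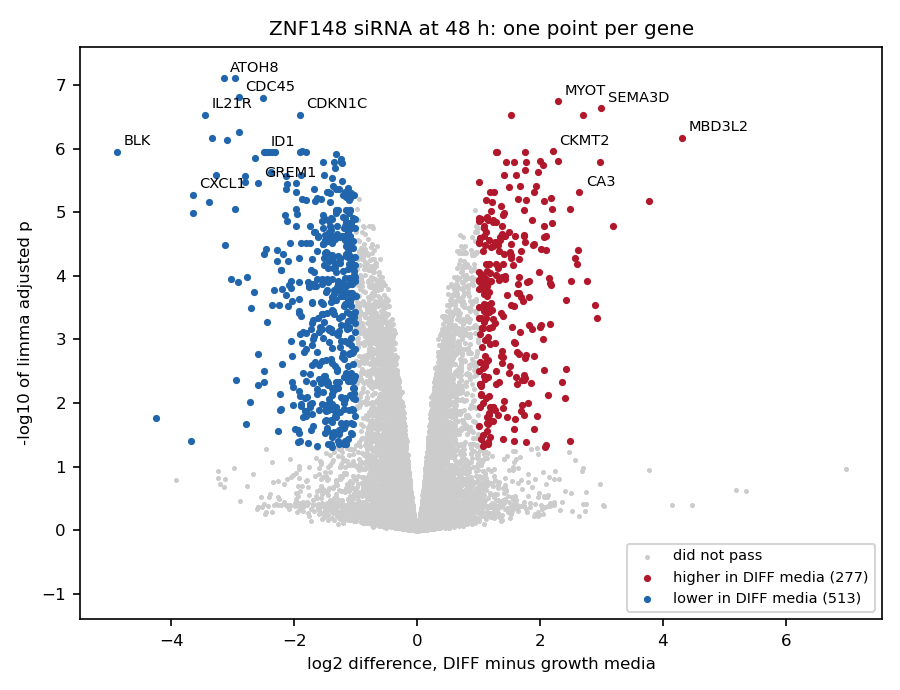
Log2 difference between DIFF and growth media with ZNF148 siRNA at 48 h (x axis) against -log10 of the limma adjusted p (y axis), with 1 point for each of 18432 genes. Red points mark the 277 genes that rose and blue points the 513 that fell.

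The genes for the factors that decide muscle fate did not reach a 2-fold difference. MYOD1, the founding myogenic factor, gave 17.00, 17.09 and 16.95 in growth media and 17.15, 17.11 and 17.21 in DIFF media, a difference of 0.14 ± 0.06 (limma adjusted p = 0.14). MYOG, which acts at the onset of differentiation, gave 10.92, 11.01 and 11.35 in growth media and 11.13, 11.11 and 10.95 in DIFF media, and these ranges overlapped. The interval of its difference ran from -0.38 to 0.32. MEF2C differed by 0.13 ± 0.06 (limma adjusted p = 0.2) and the fusion protein MYMK by -0.03 ± 0.09 (limma adjusted p = 0.914). MYF5 and MYF6, the other myogenic factors of the family, were higher by 0.85 (limma adjusted p = 0.00377) and 0.80 (limma adjusted p = 0.000111), without reaching 2-fold. Of the list's 19 genes limma called 0, against 4.29% of all genes. At the adjusted p alone 6 were higher and 2 lower, and at an unadjusted p under 0.05 the counts were 8 and 3.

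Sarcomere genes rose as a minority of their list. Of 78 tested, 11 rose (14.1%, against 1.5% of all genes) and 1 fell (1.28%). At the adjusted p alone 48 were higher, and the median difference was 0.37 against 0.01 over all genes. MYOT, a Z-disc protein, gave 10.95, 11.07 and 10.98 in growth media and 13.32, 13.29 and 13.27 in DIFF media. The groups were far apart, and MYOT rose by 2.29 ± 0.06 (limma adjusted p = 1.78e-07). TMOD4, which caps thin filaments in skeletal muscle, went from 5.5, 5.34 and 5.66 to 7.72, 7.34 and 7.49. It rose by 2.01 ± 0.16 (limma adjusted p = 3.78e-05). NRAP, a scaffold of assembling myofibrils, rose by 1.77 ± 0.10 and the myosin-binding protein MYBPC1 by 1.77 ± 0.08. MYH8, the perinatal myosin, gave 15.35, 15.37 and 15.37 against 16.34, 16.37 and 16.39. Its rise of 1.00 ± 0.05 stood at the 2-fold threshold and was lost in 4 of the alternative analyses. When all 29 arrays entered the fit, 5 of the 78 genes rose.

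Most of the contractile genes fixed for description did not reach 2-fold. Skeletal actin, ACTA1, gave 18.23, 18.19 and 18.23 in growth media and 18.19, 18.24 and 18.27 in DIFF media, with an interval from -0.11 to 0.15. Embryonic myosin, MYH3, differed by 0.11 ± 0.07 (limma adjusted p = 0.369). Slow myosin, MYH7, was higher by 0.52 ± 0.09 (limma adjusted p = 0.0031) and muscle creatine kinase, CKM, by 0.55 ± 0.05 (limma adjusted p = 0.000133), both under 2-fold. MYH2 gave 11.76, 11.29 and 11.19 in growth media and 11.26, 11.66 and 11.47 in DIFF media, and these overlapped. The dim MYH1 probe was the only list member that fell, from 4.95, 5.12 and 4.54 to 3.66, 3.94 and 3.50, and this call was lost in 7 of the alternative analyses.

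Genes for excitation, calcium handling and the neuromuscular junction showed the same kind of rise. Of 42 tested, 7 rose (16.7%, against 1.5% of all genes) and 0 fell. At the adjusted p alone 19 were higher, and the median was 0.39. PVALB, a calcium buffer of fast fibres, gave 11.48, 11.26 and 11.65 in growth media and 13.44, 13.85 and 13.30 in DIFF media, a rise of 2.07 ± 0.15 (limma adjusted p = 2.48e-05). COLQ, the collagen tail that anchors acetylcholinesterase at the junction, rose by 2.11 ± 0.15, from 6.35, 6.54 and 6.08 to 8.36, 8.41 and 8.52. TRDN, triadin of the calcium release complex, rose by 1.50 ± 0.08, and SCN4A, the sodium channel of the muscle membrane, by 1.39 ± 0.20. In the fit of all 29 arrays 2 of the 42 genes rose.

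Energy genes of mature muscle also rose, within a list that did not move as a whole. Of 42 creatine and glycolysis genes 4 rose and 1 fell, and the list's median was 0.09. CKMT2, sarcomeric mitochondrial creatine kinase, gave 8.63, 8.72 and 8.79 against 10.98, 11.04 and 10.76, a rise of 2.21 ± 0.08 (limma adjusted p = 1.1e-06). AMPD1, muscle AMP deaminase, rose by 1.25 ± 0.07, PYGM, muscle glycogen phosphorylase, by 1.18 ± 0.17, and SLC2A4, the insulin-responsive glucose transporter, by 1.18 ± 0.11. SLC2A3, another glucose transporter, fell by 1.08 on the log2 scale. In the fit of all 29 arrays 0 of the 42 genes rose and 1 fell. Of 47 oxidative phosphorylation genes limma called 0, while 16 were higher and 0 lower at the adjusted p alone, 32 and 0 at an unadjusted p under 0.05, and the median was 0.18.

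**Figure D2:**
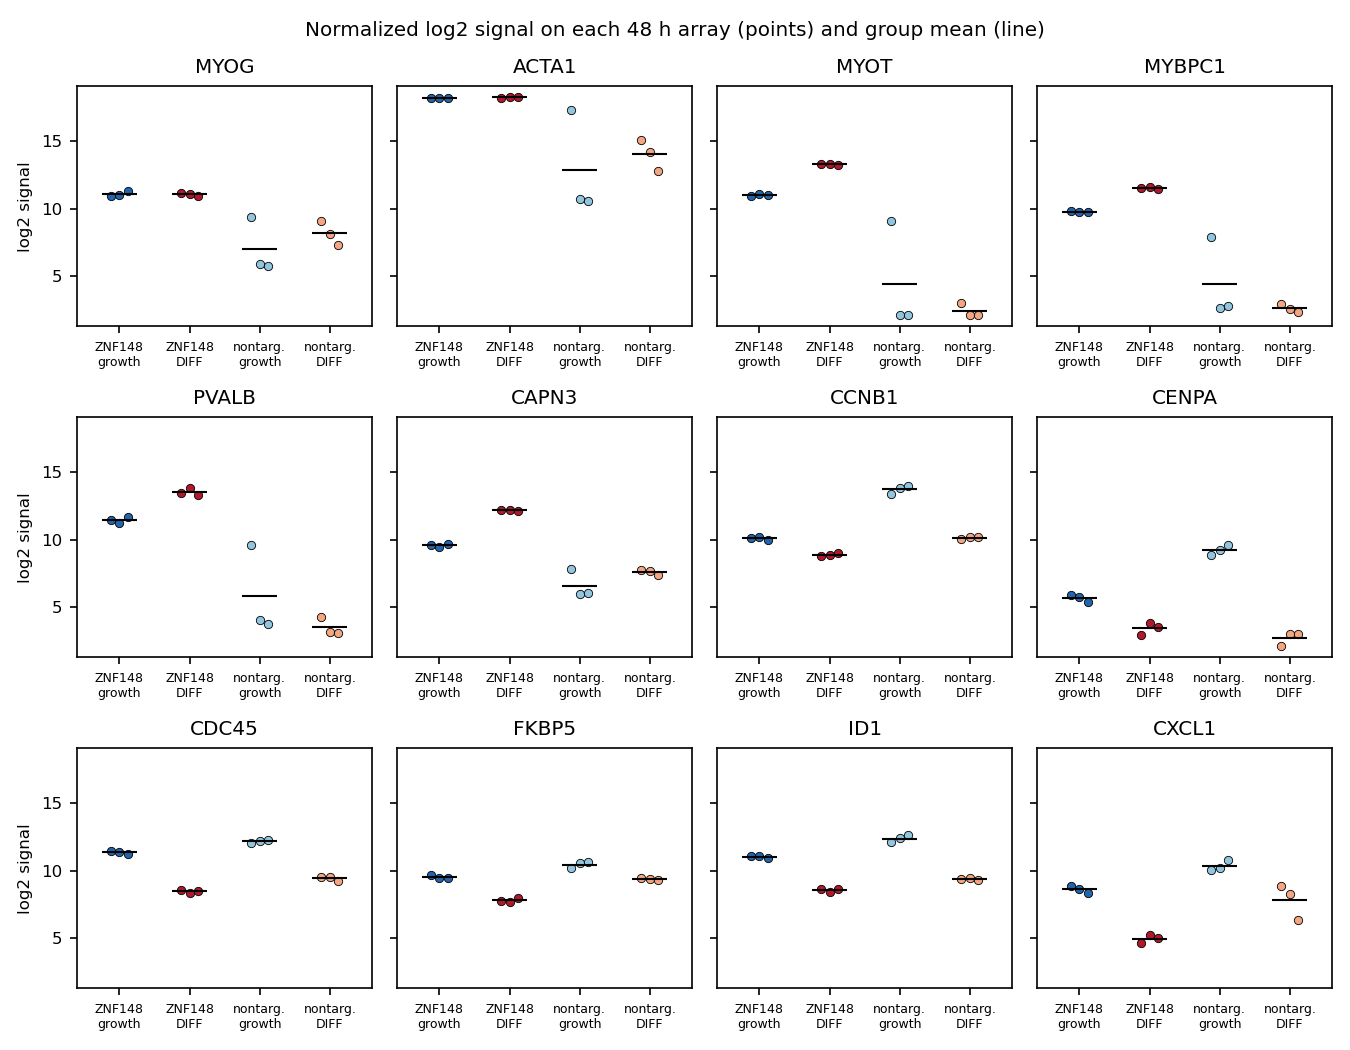
Normalized log2 signal (y axis) of 12 genes on each 48 h array, grouped by siRNA and media (x axis); points are arrays and lines are group means of 3. MYOG and ACTA1 are level between the media with ZNF148 siRNA, MYOT to CAPN3 are higher in DIFF media, and CCNB1 to CXCL1 are lower.

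The largest rises among genes above background on all 6 arrays took in muscle genes outside these lists. CAPN3, a protease bound to titin, went from 9.63, 9.43 and 9.67 to 12.23, 12.22 and 12.15, a rise of 2.62 ± 0.21 (limma adjusted p = 3.94e-05). CA3, the carbonic anhydrase of slow muscle, went from 5.52, 5.53 and 5.60 to 7.99, 8.33 and 8.25, a rise of 2.64 ± 0.14. SEMA3D, a secreted guidance cue, had the largest rise, 3.00 ± 0.09 (limma adjusted p = 2.29e-07), from 6.26, 6.32 and 6.05 to 9.12, 9.31 and 9.20. For none of these genes did the groups overlap. RPRM, a p53 target linked to G2 arrest, rose by 2.76 ± 0.26. RD3, SBSPON, PPP2R2B and LOC100132741 rose by 2.20, 2.18, 2.10 and 2.49.

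MYH11, smooth muscle myosin, rose by 2.70 ± 0.08 (limma adjusted p = 2.92e-07), from 7.81, 7.89 and 7.79 to 10.47, 10.48 and 10.66. Among 9 smooth muscle markers tested, CNN1 and LMOD1 rose too, by 1.86 ± 0.34 and 1.63 ± 0.17. CNN1 in DIFF media was uneven, at 6.65, 8.08 and 6.74, and its call was lost in 4 of the alternative analyses. ACTG2, visceral actin, fell by 1.25 on the log2 scale, while ACTA2 was higher by 0.47 ± 0.08 without reaching 2-fold. MYOCD, the factor that defines smooth muscle, was well above background on 1 array of each group. The markers summed to between 379000 and 399000 in growth media and to between 399000 and 430000 in DIFF media. DES, also a skeletal myoblast marker here, is among them, so the sum is not particular to smooth muscle. The part of these markers in the rise of MYH11 was not tested.

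Several genes were first detected in DIFF media. MBD3L2, which has near-identical copies, gave 2.18, 2.21 and 2.27 in growth media, all below background, and 6.82, 6.18 and 6.58 in DIFF media. It was at least 4.82-fold higher (limma adjusted p = 6.7e-07). CD247, the zeta chain of the T cell receptor, was at least 5.22-fold higher, ZPLD1 at least 4.1-fold, SLC6A12, a betaine and GABA transporter, at least 2.54-fold, and EGR3, an immediate early factor, at least 2.91-fold. In all, 61 of the 277 genes that rose were below background in growth media, and 61 of the 513 that fell were below background in DIFF media. A further 2 of the rises and 24 of the falls were below background in both media, so these calls rest on signals that were not well above background on any of the 6 arrays. BLK, a SRC family kinase, went from 7.24, 7.35 and 7.49 to below background and was at least 11.6-fold lower. AOX1, LINC02532, GDF6 and CRYBG1 were at least 4.18-fold, 5.42-fold, 4.07-fold and 4.01-fold lower, LINC02532 by 1 of its 2 probes.

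Among the gene lists, that of G2 and M phase had the lowest median. Of 65 G2 and M phase genes 39 fell and 0 rose, 50 were lower at the adjusted p alone, and the median was -1.21, against 2.78% of all genes that fell. Within the slides the median was -0.99, -1.35 and -1.16. CCNB1, the mitotic cyclin, gave 10.10, 10.22 and 9.96 in growth media and 8.80, 8.85 and 9.02 in DIFF media. It fell by 1.21 on the log2 scale (SE 0.12, limma adjusted p = 0.000142). MKI67, the proliferation marker, went from 8.11, 7.79 and 7.72 to 6.84, 6.45 and 6.95 and fell by 1.12. Neither gene overlapped between the groups. Larger falls within the list included those of 2 other genes: CENPA, the centromeric histone, fell by 2.23 from 5.89, 5.77 and 5.36 and was above background on 1 array in DIFF media, and the kinase PBK by 2.12 from 8.18, 8.15 and 7.64. With a background correction that compresses low signals (normexp) 18 of the 65 genes fell rather than 39, and the median was -0.65.

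Genes of G2 and M phase share promoter elements, so the promoters of 3 that fell are shown. Their sequences are from RefSeq (build GRCh38.p14), from 250 bases before to 50 after the start of the gene, written in the direction of the gene. They are 3 genes with large falls that were measured in both media, chosen as examples and not as a ranking by size. The rules of the choice included that the promoter hold both elements named below. PBK, which fell by 2.12, is not among them. By that choice, each of the 3 promoters holds both a CCAAT box (CCAAT) and a cell cycle homology region (TTTGAA) on either strand. Capitals mark every match to these letters, which do not overlap each other here. CENPA lies at chr2:26785806-26786105 (plus strand), DLGAP5, a spindle protein, at chr14:55191536-55191835 (minus strand) and SPC25, a kinetochore protein, at chr2:168890381-168890680 (minus strand).
CENPA: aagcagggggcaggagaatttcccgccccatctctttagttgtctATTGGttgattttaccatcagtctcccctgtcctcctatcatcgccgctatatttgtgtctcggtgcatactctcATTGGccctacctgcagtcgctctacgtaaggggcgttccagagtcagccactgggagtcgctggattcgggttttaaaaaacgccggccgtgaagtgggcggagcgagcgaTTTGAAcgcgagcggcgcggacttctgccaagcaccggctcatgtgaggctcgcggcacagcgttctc
DLGAP5: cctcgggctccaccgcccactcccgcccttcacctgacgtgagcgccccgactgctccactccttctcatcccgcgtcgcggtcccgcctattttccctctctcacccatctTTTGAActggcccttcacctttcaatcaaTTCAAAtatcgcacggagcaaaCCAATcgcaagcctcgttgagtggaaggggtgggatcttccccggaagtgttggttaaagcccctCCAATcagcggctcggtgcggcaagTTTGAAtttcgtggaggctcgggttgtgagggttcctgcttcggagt
SPC25: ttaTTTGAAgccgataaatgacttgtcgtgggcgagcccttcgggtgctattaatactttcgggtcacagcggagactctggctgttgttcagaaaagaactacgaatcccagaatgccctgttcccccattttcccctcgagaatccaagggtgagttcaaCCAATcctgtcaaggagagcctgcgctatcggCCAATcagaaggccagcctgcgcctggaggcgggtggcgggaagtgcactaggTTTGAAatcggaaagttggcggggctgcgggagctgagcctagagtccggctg

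DLGAP5 fell by 1.90 on the log2 scale (SE 0.25, limma adjusted p = 0.000837), from 8.26, 8.12 and 7.76 to 6.34, 6.05 and 6.06. SPC25 fell by 1.70 (limma adjusted p = 0.0147), from 7.84, 7.88 and 7.17 to 5.68, 5.89 and 6.23. Of the 55 G2 and M phase genes with a promoter in the table, 72.7% held CCAAT, 63.6% held TTTGAA and 49.1% held both, whereas among 14129 tested genes the shares were 36.4%, 11.5% and 4.79%. Among the 32 promoters of genes that fell, 53.1% held both. For the S phase list the pattern differed: 1 of 46 promoters held both, and the E2F site TTTCCCGC was in 23.9%, against 2.23% of all. These matches describe letters and not binding.

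S phase genes fell less. Of 54 tested, 8 fell (14.8%, against 2.78% of all genes) and 1 rose (1.85%, near the 1.5% of all genes). At the adjusted p alone 29 were lower, and the median was -0.47. CDC45, a subunit of the replicative helicase, stood apart from the rest: it gave 11.44, 11.40 and 11.24 in growth media and 8.56, 8.37 and 8.47 in DIFF media, a fall of 2.89 on the log2 scale (SE 0.08, limma adjusted p = 1.54e-07). TYMS, thymidylate synthase, went from 11.88, 11.87 and 11.58 to 10.59, 10.55 and 10.68 and fell by 1.17. RRM2, a ribonucleotide reductase subunit, fell by 1.55 and E2F1 by 1.29. The gene that rose was E2F8, an E2F repressor, by 1.00 ± 0.08 from 8.82, 8.78 and 8.70 to 9.70, 9.79 and 9.81. With normexp 2 of the 54 genes fell rather than 8, and 0 rose.

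The CDK inhibitors CDKN1C and CDKN1A, both linked to cell cycle exit in muscle, gave different results. CDKN1C gave 17.11, 17.08 and 17.07 in growth media and 15.29, 15.17 and 15.09 in DIFF media, a fall of 1.90 on the log2 scale (SE 0.06, limma adjusted p = 2.92e-07). CDKN1A gave 10.42, 10.49 and 10.81 against 10.85, 10.93 and 10.68, and these overlapped (limma adjusted p = 0.33). Of the 20 genes on the list, GADD45G, a stress-induced growth arrest gene, fell by 1.36 and CCND1, cyclin D1, by 1.32, and 0 rose. With nontargeting siRNA CDKN1C had a mean of 15.01 in DIFF media and gave 15.70, 11.56 and 11.44 in growth media. Its media difference was lower with ZNF148 siRNA by 5.41 without the first of these arrays (limma adjusted p = 1.53e-12) and by 4.01 with it (limma adjusted p = 0.00147).

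Dexamethasone, a synthetic glucocorticoid, is listed for the screen's growth media only. Of 30 glucocorticoid targets tested, 12 fell (40%, against 2.78% of all genes) and 0 rose, with a median of -0.68. TSC22D3, the glucocorticoid-induced leucine zipper, gave 14.01, 14.05 and 13.97 in growth media and 12.80, 12.74 and 12.79 in DIFF media, a fall of 1.23 on the log2 scale (SE 0.05, limma adjusted p = 1.46e-06). FKBP5, a chaperone of the receptor, went from 9.66, 9.50 and 9.46 to 7.74, 7.71 and 7.97 and fell by 1.73, and the clock gene PER1 fell by 1.15. The groups did not overlap for any of them. ANGPTL4, an inhibitor of lipoprotein lipase, had the largest fall, 2.13, followed by ALOX5AP, which presents arachidonic acid to its lipoxygenase, with 1.98. With normexp 8 of the 30 fell and the median was -0.27.

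Metallothioneins bind zinc and are induced by zinc and by glucocorticoids. Zinc sulfate is listed for both media of the screen. MT2A, MT1A, MT1B and MT1E were the 4 of 15 genes that fell. MT2A gave 16.70, 16.41 and 16.44 in growth media and 15.10, 15.00 and 15.17 in DIFF media, a fall of 1.42 on the log2 scale (limma adjusted p = 1.39e-05). MT1B fell by 1.42, MT1E by 1.17 and MT1A by 1.16. The family members are close in sequence, so probes of 1 gene may also report others.

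Of 34 BMP and TGF-beta targets tested, 14 fell (41.2%, against 2.78% of all genes) and 0 rose, with a median of -0.69. ID1, an inhibitor of MYOD1 that BMP signalling induces, gave 11.08, 11.07 and 10.98 in growth media and 8.63, 8.39 and 8.68 in DIFF media, a fall of 2.48 on the log2 scale (SE 0.10, limma adjusted p = 1.12e-06). ID2 and ID3 fell by 1.47 and 1.54. ATOH8, another BMP-responsive factor, went from 8.15, 8.07 and 8.18 to 5.09, 4.94 and 4.95 and fell by 3.14 (limma adjusted p = 7.78e-08). The groups of these genes did not overlap. The BMP antagonist GREM1 fell by 2.58.

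Genes of the extracellular matrix moved down. Of 54 collagens and matrix genes 18 fell (33.3%, against 2.78% of all genes) and 0 rose. At the adjusted p alone 35 were lower and 0 higher, and the median was -0.54. COL1A1, the chain of type I collagen, gave 16.46, 16.32 and 16.54 in growth media and 15.18, 15.13 and 15.22 in DIFF media, a fall of 1.26 on the log2 scale (SE 0.07, limma adjusted p = 4.31e-06). LOX, which cross-links collagen, fell by 1.97, the proteoglycan VCAN by 1.56, COL7A1 by 1.53 and COL15A1 by 1.51. Of 13 fibroblast markers, COL1A1, PDGFRA, MFAP5 and FAP fell, 0 rose and 9 did not pass, with a median of -0.30. The 13 summed to between 204000 and 216000 in growth media and between 140000 and 147000 in DIFF media. Such a sum of linear signals is weighted to bright genes, and COL1A1 is 1 of these. The fibroblast markers DCN, LUM and S100A4 did not pass, DCN being at a mean of 14.4 in both media. Fewer cells of a type and less RNA per cell cannot be told apart in these bulk samples, and the part of the markers in the matrix genes was not tested.

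**Figure D3:**
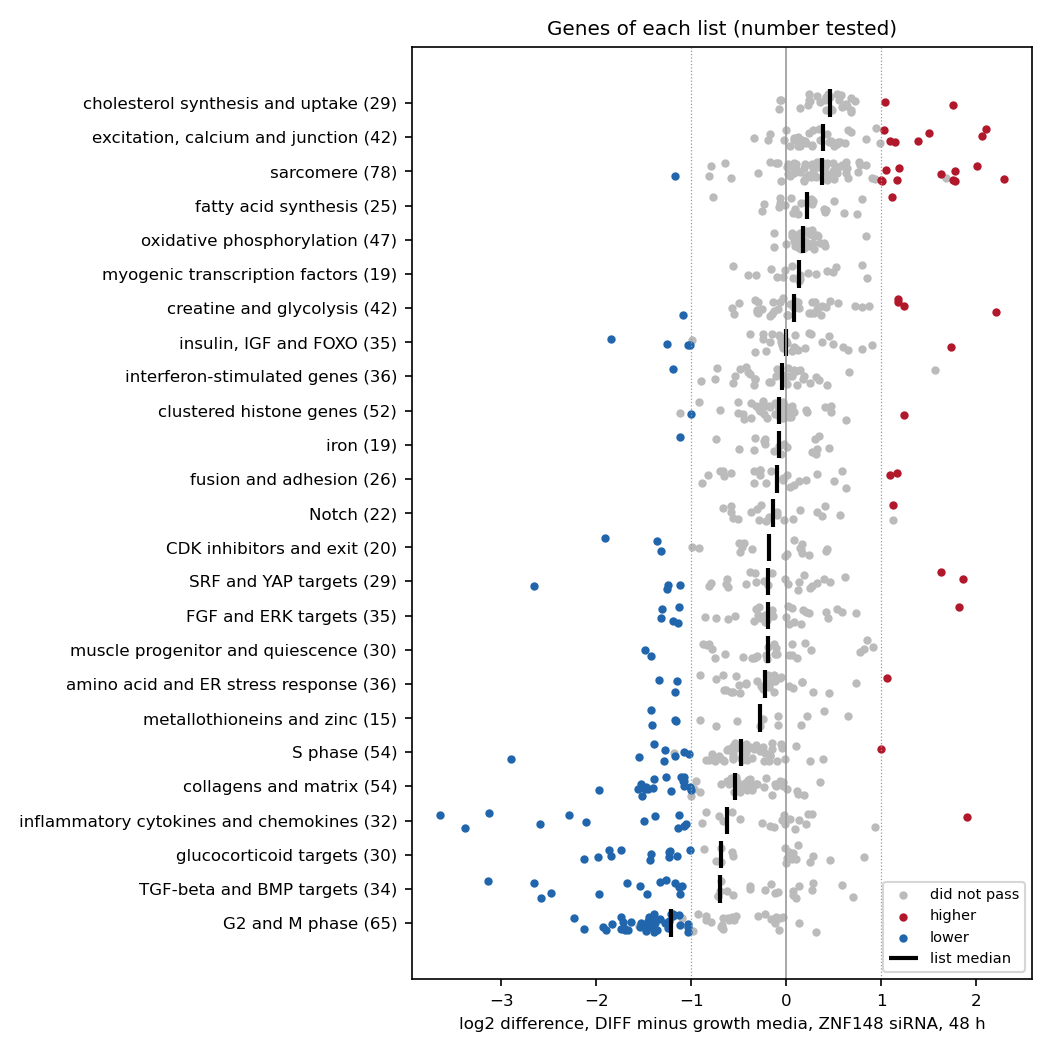
Log2 difference between DIFF and growth media with ZNF148 siRNA at 48 h (x axis) for the tested genes of 25 lists (y axis, number tested in brackets); each point is a gene, coloured where it rose or fell, and black bars are list medians. The G2 and M phase, TGF-beta and BMP, glucocorticoid, cytokine and matrix lists lie to the left, and the cholesterol, excitation and sarcomere lists to the right.

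Inflammatory cytokines and chemokines held some of the largest falls. Of 32 tested, 12 fell (37.5%, against 2.78% of all genes) and 1 rose (3.12%), with a median of -0.62. CXCL1, a neutrophil chemokine, gave 8.86, 8.65 and 8.35 in growth media and 4.66, 5.25 and 5.02 in DIFF media, a fall of 3.64 on the log2 scale (SE 0.20, limma adjusted p = 5.29e-06). SAA1, an acute phase protein, went from 8.96, 9.01 and 9.05 to 5.12, 5.66 and 6.10 and fell by 3.38. CXCL6 and IL1B were below background in DIFF media, at least 2.77-fold and 2.8-fold lower. The chemokine that rose was CXCL12, a ligand for migrating muscle precursors, by 1.91 ± 0.10 from 4.73, 4.56 and 4.50 to 6.39, 6.58 and 6.55, and this was so for 1 of its 4 probes, whose differences ran from -1.24 to 1.91. With normexp 6 of the 32 genes fell and 0 rose. SAA1 and CXCL1 have close paralogues whose signal the probes may share.

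Other large falls came from genes of varied function. DEFB103B, a beta-defensin with a near-identical copy, gave 9.88, 9.99 and 9.49 in growth media and 5.57, 6.55 and 6.30 in DIFF media, a fall of 3.65 on the log2 scale (limma adjusted p = 1.03e-05). IL21R, a cytokine receptor chain, went from 10.25, 10.16 and 10.24 to 6.67, 6.74 and 6.92 and fell by 3.44. NPTX2, a neuronal pentraxin, fell by 2.97. The olfactory receptor OR7A5 fell by 3.33, CCDC3 by 3.1, HID1 by 2.96 and SHISA9 by 2.89. Of 7 leukocyte markers only CD2 fell, and its growth arrays were uneven at 9.96, 10.05 and 5.69. Its call was lost in 7 of the alternative analyses, and without growth media replicate 3 the difference was -5.11. PTPRC, the pan-leukocyte marker, was at a mean of 6.3 in growth media and 6.6 in DIFF media. The leukocyte markers summed to between 485 and 1560 in growth media and to between 371 and 630 in DIFF media, and their part in these falls was not tested.

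Cholesterol genes were shifted upward without most of them reaching 2-fold. Of 29 tested, 2 rose and 0 fell, yet 21 were higher at the adjusted p alone, and the median was 0.46. MVD, a decarboxylase of the mevalonate pathway, gave 9.49, 9.49 and 9.62 in growth media and 10.61, 10.50 and 10.62 in DIFF media, a rise of 1.04 ± 0.07 (limma adjusted p = 1.27e-05). HMGCS1, a synthase of the same pathway, was higher by 0.72 (limma adjusted p = 0.000125) and INSIG1, a sterol-sensing regulator, by 0.48 (limma adjusted p = 0.0143). Of 25 fatty acid synthesis genes MLXIPL rose, by 1.12, and FASN was higher by 0.61 (limma adjusted p = 0.000161).

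Insulin is listed for the screen's DIFF media only. Genes of insulin and IGF action moved in both directions. Of 35 tested, 1 rose and 4 fell, and the median was 0.00. IGFBP5, a binding protein made by differentiating muscle, gave 9.32, 9.30 and 9.32 in growth media and 11.04, 10.83 and 11.28 in DIFF media, a rise of 1.74 ± 0.11 (limma adjusted p = 9.29e-06). IGFBP3 and IGFBP4 fell by 1.03 and 1.25, IRS2, an insulin receptor substrate, by 1.01, and IGFBP1 was at least 2.35-fold lower. The calls of IRS2 and IGFBP3 stood near the 2-fold threshold and were lost in 5 and 3 of the alternative analyses. IGF2 differed by -0.03 ± 0.09 (limma adjusted p = 0.904) at a mean of 18.6 in both media. TFRC, the transferrin receptor, was higher by 0.32 ± 0.07 (limma adjusted p = 0.0125), under 2-fold, and of 19 iron genes STEAP3 fell, by 1.11.

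Basic fibroblast growth factor is also listed for the screen's growth media only. Of 35 FGF and ERK targets tested, 1 rose, EGR3, and 5 fell, with a median of -0.19. SPRY2, a feedback inhibitor, gave 13.15, 13.12 and 13.16 in growth media and 13.20, 13.21 and 13.22 in DIFF media, with an interval from -0.04 to 0.18. DUSP6, the ERK phosphatase, was lower by 0.54 (limma adjusted p = 0.00195), from 13.03, 13.05 and 12.80 to 12.41, 12.38 and 12.49. CCND1 fell by 1.32, EPHA2 by 1.30 and EMP1 by 1.19.

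The media difference with ZNF148 siRNA was then set against that with nontargeting siRNA at 48 h, with the difference of the differences tested gene by gene. Nontargeting replicate 1 in growth media stood apart: the 78 sarcomere genes averaged 11.26 on that array and 7.25 and 7.28 on the others of its group. In the fit of all 29 arrays, 1485 of 18432 genes had a higher media difference with ZNF148 siRNA (8.06%) and 1662 a lower one (9.02%), 3147 in all (17.1%). Over probes the shares were 6.69% and 7.26%. Without the array that stood apart the counts were 1510 (8.19%) and 1880 (10.2%), 3390 in all (18.4%), and the values that follow are from that fit of 28 arrays unless all 29 are named.

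The media difference of cell cycle genes separated the siRNAs. The mean of the G2 and M phase genes was 8.26, 8.22 and 7.95 with ZNF148 siRNA in growth media and 7.0, 7.04 and 7.14 in DIFF media, while with nontargeting siRNA it was 10.83, 11.34 and 11.40 in growth media and 7.10, 7.21 and 7.17 in DIFF media. DIFF media thus brought both siRNAs to a similar level, from a start that was lower with ZNF148 siRNA. For 60 of 65 genes the difference was higher (less negative) with ZNF148 siRNA, and the list's median was -4.22 with nontargeting siRNA, against -1.21. The count was also 60 with all 29 arrays. Of 54 S phase genes 46 differed in the same direction (42 with all 29 arrays), with a median of -2.45 with nontargeting siRNA against -0.47. Clustered histone genes behaved alike. With ZNF148 siRNA 1 rose and 1 fell of 52 (1.92% each, against 1.5% and 2.78% of all genes). Their median was -0.07, against -1.18 with nontargeting siRNA, and 29 differed.

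Sarcomere genes showed the reverse. With ZNF148 siRNA they averaged 12.44, 12.44 and 12.60 in growth media and 12.94, 12.98 and 12.91 in DIFF media. With nontargeting siRNA in DIFF media they averaged 9.02, 8.74 and 8.38, below every ZNF148 siRNA array. The media difference was lower with ZNF148 siRNA for 35 of 78 genes and higher for 7 in the fit without the array that stood apart, but with all 29 arrays the counts were 3 and 8, so this comparison rests on that array. The same held for the skeletal myotube markers, of which 12 of 13 had a lower difference with ZNF148 siRNA without that array and 0 with all 29. MYOT, MYBPC1 and CKMT2 were below background on all 3 arrays in DIFF media with nontargeting siRNA, at means of 2.43, 2.63 and 2.06. CKM had a mean of 10.69 there and a difference of 4.82 between the media, against 0.55 with ZNF148 siRNA (limma adjusted p = 3.13e-08 for the difference, and 0.828 with all 29 arrays).

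The FGF and ERK list also separated the siRNAs. Its median was -1.51 with nontargeting siRNA, against -0.19 with ZNF148 siRNA, and the difference was higher with ZNF148 siRNA for 19 of 35 genes and lower for 0 (20 and 0 with all 29 arrays). DUSP6 was lower by 4.32 on the log2 scale in DIFF media with nontargeting siRNA, and the difference between the siRNAs was 3.78 (limma adjusted p = 3.96e-07). For SPRY2 it was 1.27 (limma adjusted p = 8.83e-06). For collagens and matrix genes the difference was lower with ZNF148 siRNA for 19 of 54 genes and higher for 5 (15 and 5 with all 29 arrays), and COL1A1 differed by -1.76 (limma adjusted p = 5.37e-08, and 0.0554 with all 29 arrays). For glucocorticoid targets the difference was lower with ZNF148 siRNA for 6 of 30 genes and higher for 4 (5 and 4 with all 29 arrays). The list's median was -0.20 with nontargeting siRNA, against -0.68. ALOX5AP differed by -4.12 (limma adjusted p = 8.02e-12) and ANGPTL4 by 1.52 (limma adjusted p = 0.000296). FKBP5 differed by -0.54 (limma adjusted p = 0.0161), under 2-fold, and PER1 by 0.01 (limma adjusted p = 0.983).

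**Figure D4:**
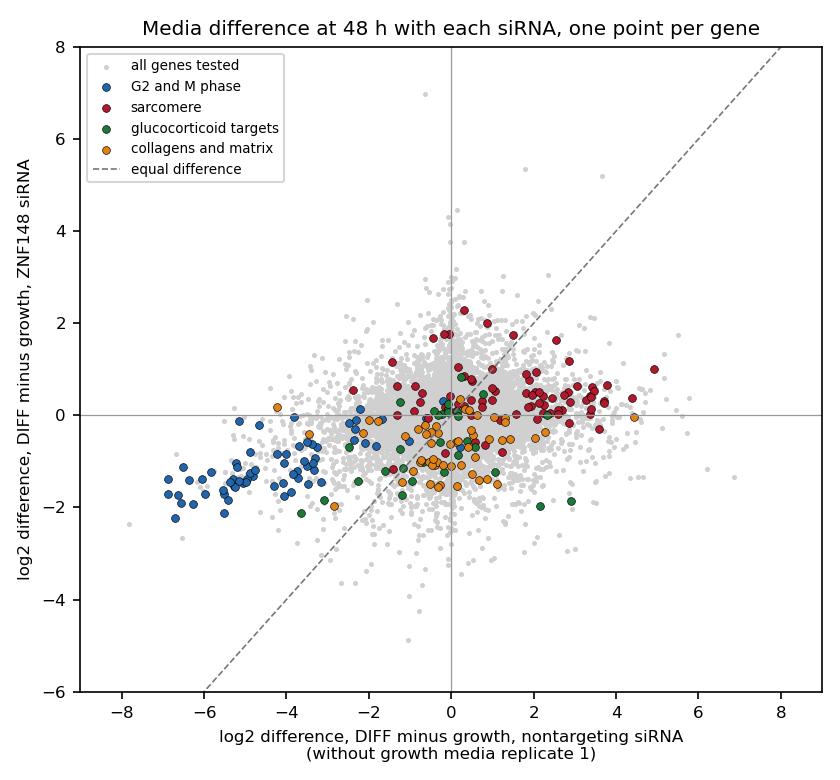
Log2 difference between DIFF and growth media at 48 h with nontargeting siRNA (x axis, without growth media replicate 1) against that with ZNF148 siRNA (y axis), with 1 point per gene and 4 lists coloured; the dashed line marks equal differences. G2 and M phase genes (blue) lie far to the left and a short way down, and sarcomere genes (red) to the right and near 0 on the y axis.

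The same media difference was compared between 48 h and 96 h with ZNF148 siRNA. It differed for 392 of 18432 genes (2.13%), being higher at 48 h for 292 (1.58%) and lower for 100 (0.543%). Over probes the split was 461 higher (1.19%) and 164 lower (0.422%), and 313 and 179 when arrays were scaled to their 75th percentile instead. The list medians at 96 h were -1.04 for G2 and M phase genes, 0.40 for sarcomere genes and 0.42 for cholesterol genes, against -1.21, 0.37 and 0.46 at 48 h. Of these lists' genes 1, 2 and 0 differed between the times. CDKN1C differed by -0.39 between the media at 96 h, against a fall of 1.90 at 48 h (limma adjusted p = 0.000182 for the difference of -1.51).

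Interferon-stimulated genes set the times apart. At 48 h their mean was 8.79, 8.81 and 8.68 in growth media and 8.57, 8.81 and 8.61 in DIFF media, and of 36 genes 0 rose and 1, IRF7, fell. At 96 h their mean was 12.48, 12.41 and 12.28 in growth media and 11.32, 11.22 and 11.18 in DIFF media. The list's median media difference was -0.04 at 48 h and -1.17 at 96 h, and 14 of 36 genes differed between the times, all higher at 48 h. MX1, an antiviral GTPase chosen here after its values were seen, gave 9.74, 9.61 and 9.69 in growth media and 9.30, 10.36 and 9.62 in DIFF media at 48 h, and its difference was -1.27 at 96 h (limma adjusted p = 0.0386 for the difference between the times).

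**Figure D5:**
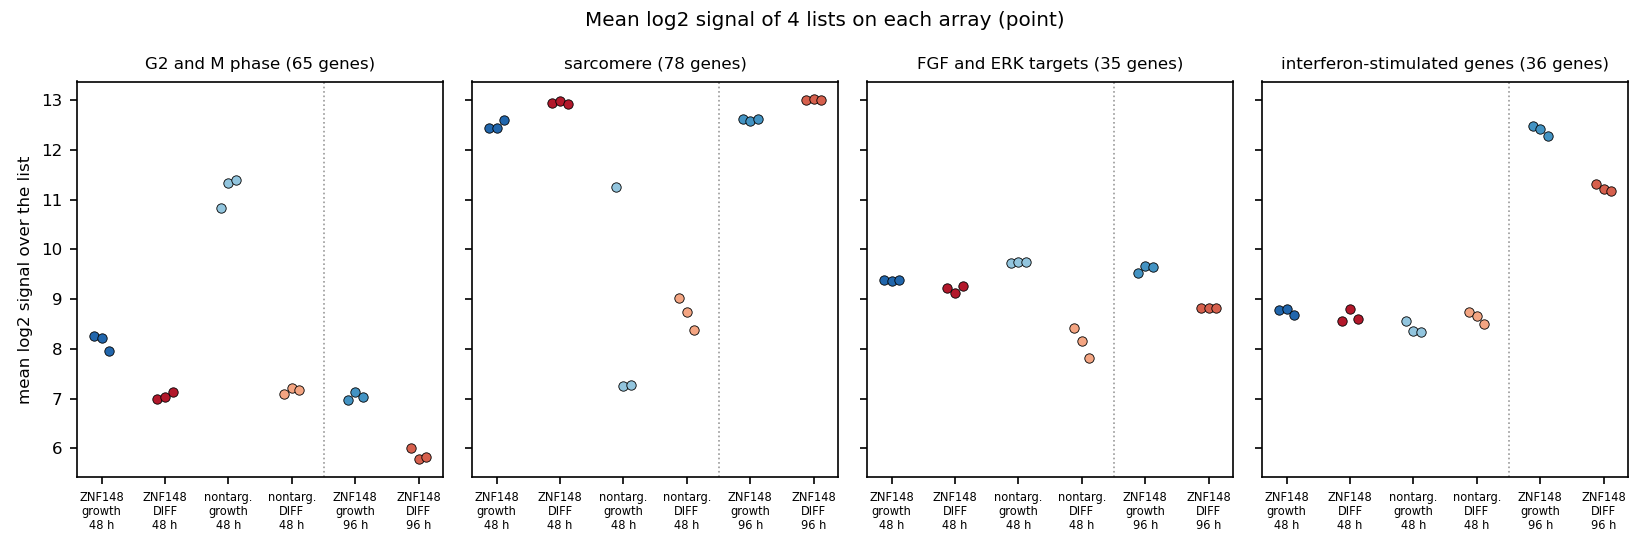
Mean log2 signal over the genes of 4 lists (y axis) on each array (points) by siRNA, media and time (x axis). G2 and M phase genes reach a similar level in DIFF media at 48 h with either siRNA, sarcomere genes are highest with ZNF148 siRNA, and interferon-stimulated genes are raised at 96 h.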

How the data were processed

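LHCN-M2 myoblasts were transfected with siRNA at 20 nM and RNA from each sample was hybridized to a 1-colour Agilent 8 x 60K array of 62976 spots. The deposited scanner files hold intensity values, which the authors extracted with Agilent Feature Extraction (10.7.3.1 per the file headers) as background-subtracted processed signals. The authors' methods give quantile normalization of log signals over all samples. The deposited value table holds log2 values, and each of its 29 columns matched its own array with a correlation of 1, so scale and direction were settled.

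Here spots of a probe were averaged after control and outlier spots were dropped, and log2 processed signals were quantile-normalized over 29 arrays. The background filter kept probes well above background on 2 or more of the 29 arrays, in any group. The 38839 probes that passed were tested with limma 3.58.1 in R 4.3.3. The media fit used the 12 ZNF148 siRNA arrays at 48 h and 96 h, and the comparison with nontargeting siRNA used all 29 arrays. Calls needed a Benjamini-Hochberg adjusted p under 0.05 over all probes and over 2-fold, two-sided. Of several probes of a gene, the brightest on average among those tested stands for it, and 18432 genes had one. For LMOD1, MT1E, SLC2A3 and STEAP3 1 of 2 probes passed, and for MKI67 2 of 3. Other versions were the data.table package (1.17.8), Python 3.11.15, pandas 2.3.3 and matplotlib 3.10.9. Replicate numbers come from the sample titles.

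Named genes were the 12 largest rises and the 12 largest falls measured on all 6 arrays without overlap, the 5 largest lower bounds each way, up to 4 called members of each list, the 5 largest differences each way in the comparisons with nontargeting siRNA and with 96 h, and a fixed set of muscle, cell cycle, lipid, hormone and growth factor genes. SPC25, E2F8, SLC2A3, CXCL12, MX1, DCN, LUM, S100A4, MYOCD, PTPRC, CCN2, AXL, H1-5 and H1-6 were chosen after their values were seen. A few of the named genes are not reported here. Members and lists were chosen with earlier results of these data known. A lower bound sets the brighter group's mean against the mean, over the other group's arrays, of the lowest signal well above background or the probe's own signal where that is higher. The procedure was tested on simulated data for bias, wrong signs and false calls. A first minimum for recovered changes was dropped after it was not met. Array headers give no build that matches the RefSeq table, so no probe positions are given. Alternatives covered normalization, background correction, filters, variance models, blocks, gene averaging, the methods' t-test, and leaving out each replicate.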

Additional observations from a re-analysis of the deposited data

Results flagged for a closer look

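Genes with the largest differences of the media difference are given here with their values (limma, all 29 arrays, ZNF148 siRNA minus nontargeting siRNA at 48 h). The media difference was higher with ZNF148 siRNA for H3C15, a histone gene, by 5.75, for AREG, an EGF receptor ligand, by 5.31, for HAS2, a hyaluronan synthase, by 5.31, for KIF14, a mitotic kinesin, by 5.24, and for FAM83D, a spindle protein, by 5.22. KIF14 had means of 5.94 in growth and 4.56 in DIFF media with ZNF148 siRNA, and of 10.5 and 3.87 with nontargeting siRNA. The difference was lower for SLC47A1, an organic cation transporter, at -7.41, for KCNF1, a potassium channel subunit, at -6.98, for CD24, a surface glycoprotein, at -5.75, for RIMS3 at -5.63 and for LINC02532 at -5.25. CD24 had means of 7.38 and 6.03 with ZNF148 siRNA, and of 5.99 and 10.4 with nontargeting siRNA. Some of these differences rest partly on signals near background. AREG was below background on every nontargeting array in DIFF media, at a mean of 2.58. In growth media with nontargeting siRNA KCNF1 gave 6.17, 2.08 and 2.91 and LINC02532 4.19, 2.19 and 2.15. Each was well above background on 1 of those arrays.

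Between 48 h and 96 h with ZNF148 siRNA, the media difference was higher at 48 h for ZNF252P-AS1 by 6.01, for IGFN1 by 4.06, for TAC4, a tachykinin, by 4.03, for STC1, stanniocalcin, by 3.93 and for FAM167A by 3.74. It was lower at 48 h for GPR157 at -4.97, LINC02532 at -3.65, DAPL1 at -3.47, ACTR3C at -3.08 and the clock gene PER3 at -2.82. GPR157 and DAPL1 were below background on every array of both media at 48 h, so their differences rest on 96 h. IGFN1 was below background on every growth media array at 48 h, and its 2 probes differed between the media by -1.94 and 1.05 there. FAM167A was below background on every DIFF media array at 96 h, at a mean of 2.33. In DIFF media at 96 h GPR157 was uneven, at 9.65, 6.02 and 8.64. TAC4 had means of 4.79 in growth and 5.84 in DIFF media at 48 h, and of 9.19 and 6.21 at 96 h.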

How the results depend on the processing

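Over probes, the media comparison with ZNF148 siRNA gave 519 higher and 771 lower, the difference from nontargeting siRNA 2598 and 2821, and the difference from 96 h 461 and 164. With normexp the counts were 142 and 264, 1441 and 1550, and 153 and 64. With no fold threshold they were 2805 and 3043, 5948 and 6313, and 1323 and 850. With probes averaged by gene, which leaves fewer tests, they were 293 and 504, 1534 and 1621, and, for 96 h, 108 lower. Leaving out each replicate gave 471 to 572 and 702 to 864, 2417 to 2737 and 2620 to 3121, and 344 to 497 and 130 to 224. The methods' t-test gave 567 and 831 unadjusted and 382 and 579 after adjustment. No named gene reversed in the media comparison. In the difference from nontargeting siRNA the balance of directions did turn: 2777 higher and 2715 lower with scaling to the 75th percentile, and 2737 and 2705 without nontargeting growth media replicate 2. The sarcomere counts there went from 8 higher and 3 lower with all 29 arrays to 7 and 35 without replicate 1. Of 121 called named genes, 67 kept their call in every alternative. A fit of all 29 arrays gave 5 sarcomere rises rather than 11, 2 excitation rises rather than 7 and 0 creatine and glycolysis rises rather than 4. The causes were not tested. Signal over background limits dim genes.

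The replicate block gave 491 and 716, 2578 and 2808, and 340 and 138. Deviations of same-numbered arrays correlated at -0.071, 0.026 and 0.009, so the numbers were not taken as pairing. A slide block gave 513 and 775 in the media comparison.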

Other observations

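Further lists held single genes that passed the test with ZNF148 siRNA at 48 h. Of 26 fusion and adhesion genes 2 rose and 0 fell: KIRREL3, an adhesion molecule of the nephrin family, by 1.16 ± 0.09 from 6.73, 6.68 and 6.47 to 7.78, 7.74 and 7.84 for 1 of its 2 probes, and MCAM, a cell adhesion molecule of the immunoglobulin family, by 1.10 ± 0.10. Of 30 progenitor and quiescence genes SOX8, an SRY-related factor, fell by 1.49 and HMGA2, a chromatin protein of dividing progenitors, by 1.42 for 1 of its 3 probes, whose differences ran from -1.42 to 0.16. Of 22 Notch genes NRARP, a feedback regulator, rose by 1.12 ± 0.10. Of 36 amino acid and ER stress genes ATF5 rose by 1.07 ± 0.08, whereas CHAC1, which degrades glutathione, fell by 1.34, PSAT1, of serine synthesis, by 1.17 and TRIB3 by 1.14. These 3 falls were 8.33% of the list, against 2.78% of all genes, and its median was -0.22. Of 29 SRF and YAP targets 2 rose, CNN1 and LMOD1, and 4 fell, among them ACTG2, AXL (by 1.24) and CCN2 (by 1.12). The histone that fell was H1-5, by 1.00, and H1-6 was below background in growth media.

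Markers of other cell types moved in both directions. Of 11 neuron markers the neurofilaments NEFL and NEFM rose by 1.39 ± 0.10 and 1.31 ± 0.05, and STMN2, a tubulin-binding protein of growth cones, fell by 1.93. The neuron markers summed to between 12600 and 14000 in growth media and to between 19800 and 21200 in DIFF media. Of 8 endothelial markers CLDN5, a tight junction protein, fell by 2.64 from 9.89, 9.88 and 10.01 to 7.46, 7.09 and 7.30, and the receptor TEK was at least 1.8-fold lower. Of 8 adipocyte markers GPD1, glycerol-phosphate dehydrogenase, rose by 1.19 ± 0.14, and CEBPA fell, with a bound of 1.7-fold. CEBPA was well above background on only 1 array in growth media, where it gave 4.86, 4.58 and 4.45. Its bound thus rests mostly on dim signals, and its call was lost in 11 of the alternative analyses.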
